A study of Mus musculus with 96 samples.

Results

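Potassium channel genes were taken as the protein-coding genes whose symbol in the GENCODE M21 annotation starts with Kcn, 86 of the 19918 genes counted. A further 8 annotated genes of this name (Kcna7, Kcne1, Kcnj1, Kcnj15, Kcnk15, Kcnk16, Kcnk18 and Kcnmb3) were not analysed here. RNA sequencing of nucleus accumbens (NAc) and prefrontal cortex (PFC) punches from the same 48 mice gave 96 libraries, 48 per region. The mice were of the FCG line, in which the Y chromosome has lost its testis-determining gene Sry (Y-) and some animals carry Sry as a transgene. XX mice and XY- mice have ovaries, and XXSry mice and XY-Sry mice have testes. Stressed mice spent 3 sessions of 1 hour in restraint within 6 days (subchronic variable stress), and control mice were left unstressed. The groups held 6 stressed and 5 control XX mice, 6 and 6 XXSry mice, 6 stressed and 7 control XY- mice, and 6 and 6 XY-Sry mice. Each library is labelled with its own animal, so n counts animals. The sources used here give neither age nor background strain, and the labels put the mice in 3 cohorts of 23, 12 and 13. Gonad type, exposure to the hormones of that gonad and the Sry transgene itself cannot be told apart in this design.

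Potassium channels let potassium leave the cell, which sets the resting potential and ends or spaces action potentials. Voltage-gated (Kv) subunits assemble as tetramers and open on depolarisation; silent Kv subunits form no channel of their own and alter Kv2 channels. Calcium-activated and sodium-activated channels link firing to a slower outward current, inward rectifiers hold the cell near rest, and tandem-pore (K2P) channels carry the leak. In striatal projection neurons, inward rectifiers, slowly inactivating Kv1 currents and Kv4 currents are known to hold the cell in a silent down state and delay its first spike. Cortical pyramidal neurons are known for G protein-gated inward rectifiers on their dendrites, and fast-spiking cortical interneurons for Kv3 channels.

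Total counts ran from 45.9 to 120.8 M per NAc library and from 67.6 to 104.4 M per PFC library, more than the average number of reads the labels state, and the sources do not say whether both mates of a pair were counted. The sum of 6 striatal projection neuron markers ran from 1024 to 2999 CPM (counts scaled to library size) in NAc libraries, against 80.0 to 139.1 CPM in PFC libraries. The sum of 6 cortical excitatory markers was 54.5 to 930.1 CPM in NAc and 1954 to 2374 CPM in PFC, so the labelled regions were told apart without overlap by both lists. Oligodendrocyte markers summed to 4397 ± 812 CPM in NAc and 870.4 ± 190.2 CPM in PFC (SD, n = 48 each). In bulk tissue, fewer cells of a type and less RNA per cell cannot be told apart. The strand setting of the counting is not stated either, so values are uncertain for the 17 Kcn genes with exons that overlap another counted gene on the opposite strand (among them Kcna6, Kcnab1, Kcnab3, Kcnd3, Kcng2, Kcnh3, Kcnh7, Kcnip4, Kcnj3, Kcnj13, Kcnk2, Kcnk3, Kcnmb4, Kcnn1, Kcnn2 and Kcnq1). The same holds for Kcnab2 and Kcnk4, which overlap one on their own strand.

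The Kcn genes were, summed, less abundant in NAc than in PFC, and each channel family held genes of both signs. Summed CPM of all 86 was 4768 ± 257 in NAc and 6305 ± 221 in PFC (SD, n = 48 each), and the sum was lower in NAc in each of the 48 animals. In an edgeR quasi-likelihood fit across all genes with the animal as a block, 80 of 86 (93%) passed an adjusted p of 0.05, beside 85.9% of all 19918 genes. Most genes of the genome thus passed this test, and the share of Kcn genes that passed was close to that. Of the 80, 57 were lower and 23 higher in NAc (66.3% and 26.7% of the 86), where 41.9% of all genes were lower and 44% higher. The median log2 fold change, NAc over PFC, was -0.61 over the Kcn genes and 0.02 over all genes. Values of the 48 NAc and 48 PFC libraries did not overlap for 41 of 86 Kcn genes (47.7%), 30 of them lower and 11 higher in NAc, against 16.4% of all genes. The called differences were at least 2-fold for 28 genes lower (32.6%, against 9.39% of all genes) and 14 genes higher in NAc (16.3%, against 10.9%). These counts include 4 genes that passed the low-count filter in 1 region only, Kcnj13 and Kcna10 in PFC and Kcnv2 and Kcnk7 in NAc, whose calls are tied to that filter. Over the 82 genes that passed it in both regions, 76 were called (92.7%, against 85.5% of 19058 genes), 55 lower and 21 higher (67.1% and 25.6%, against 42.6% and 42.9%). At 2-fold or more, these were 26 lower (31.7%, against 8.65%) and 12 higher (14.6%, against 8.72%).

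**Figure D1:**
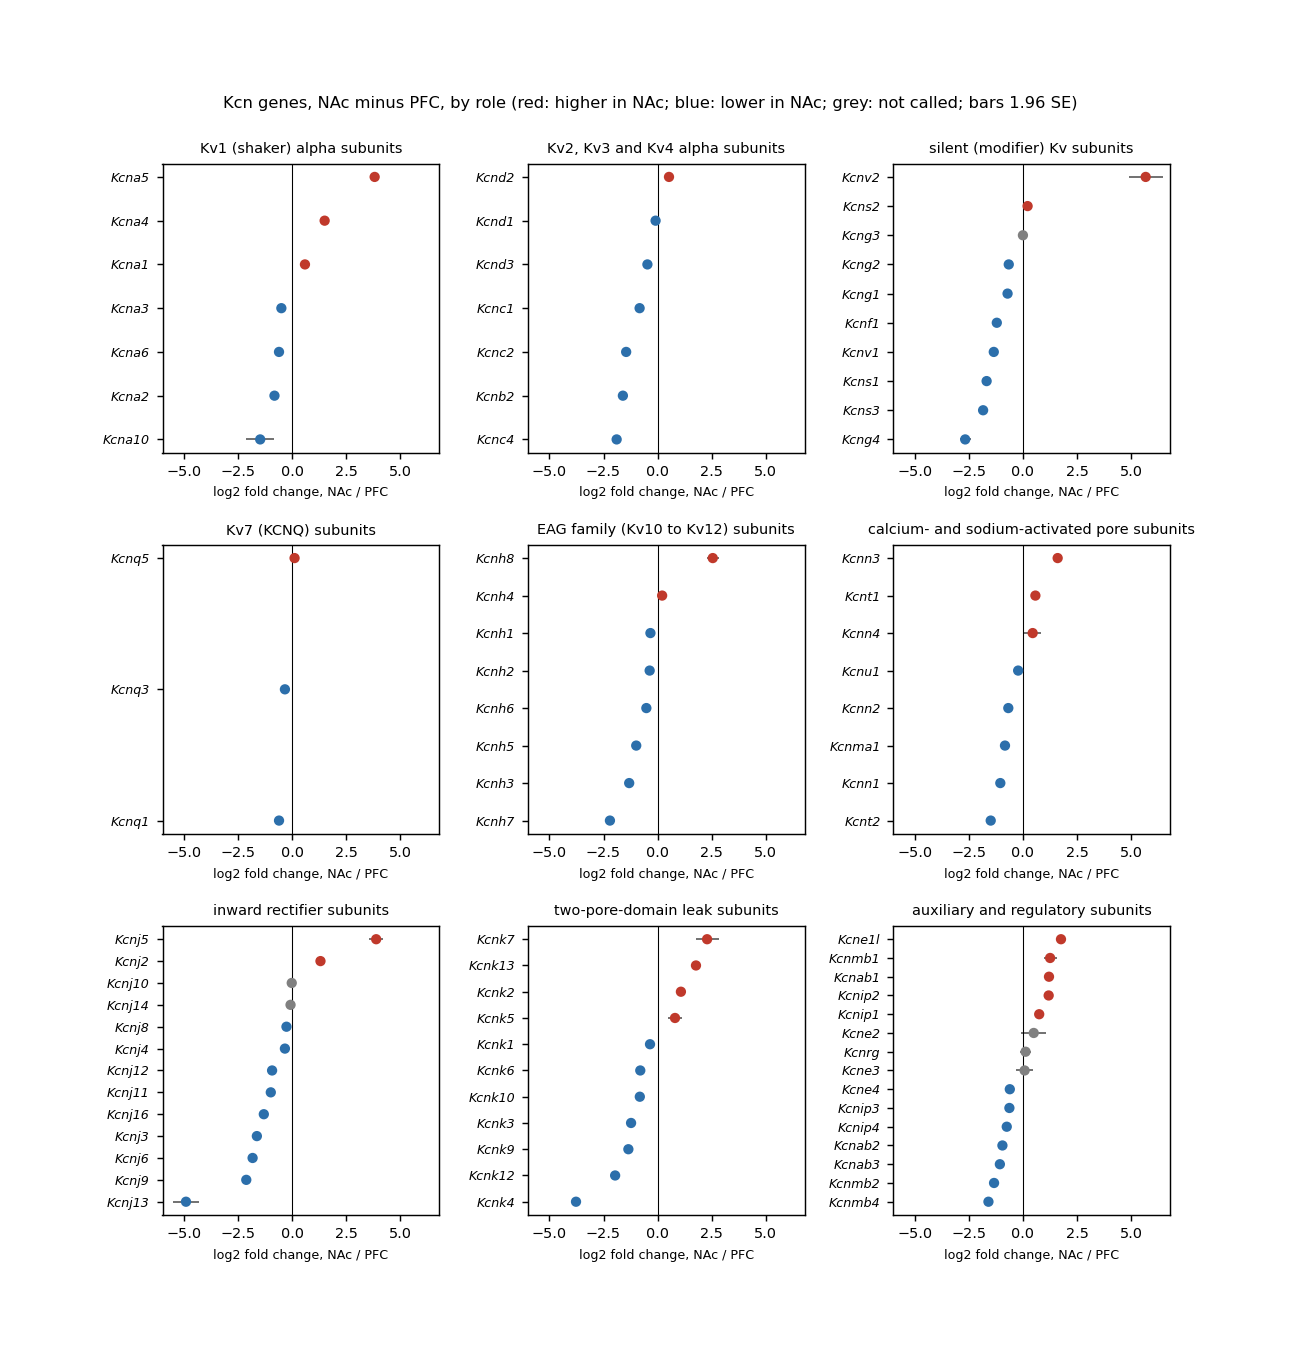
Log2 fold change of Kcn genes, NAc over PFC, in 9 panels by role; points are edgeR estimates, horizontal bars 95% intervals, red higher and blue lower in NAc, grey not called; Kcnj13, Kcna10, Kcnv2 and Kcnk7 passed the low-count filter in 1 region only. Each panel holds genes on both sides of 0, and in the Kv2, Kv3 and Kv4 panel Kcnd2 is the gene on the right.

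Between genes, levels are compared as CPM per kb of merged exon length, with the SD over libraries as the spread and no test of a difference. On that scale, 25 Kcn genes were at 10 CPM per kb or more in NAc and 33 in PFC, and 27 and 21 were below 1 CPM per kb. The highest in NAc was Kcna1, a Kv1 subunit of axons, at 59.1 ± 6.38 CPM per kb (SD, n = 48), followed by Kcnip2 at 51.9 ± 8.41. Their spreads overlapped, and both stood above Kcnj10 at 36.1 ± 4.01. In PFC the highest was Kcnab2, a cytoplasmic Kv1 beta subunit, at 58.6 ± 3.51 CPM per kb, followed by Kcnj9 at 46.6 ± 2.35 and Kcnf1 at 45.1 ± 3.55. Kcnj9 and Kcnf1 did not differ beyond their spread. Among the K2P genes Kcnk1 led in both regions, at 23.4 ± 2.14 CPM per kb in NAc and 29.8 ± 2.18 in PFC, followed by Kcnk2. Kcnt1 had the highest mean of the calcium- and sodium-activated genes in both regions, in PFC within its spread of Kcnma1. Kcnj10 and Kcnj4 had the highest means of the inward rectifiers in NAc, not apart beyond their spread, and Kcnj9 and Kcnj4 in PFC. Kcnd2 led the Kv2 to Kv4 genes in NAc at 32.3 ± 3.31 CPM per kb, followed by Kcnc1 (10.7 ± 1.04) and Kcnd3 (10.51 ± 1.01), a pair that did not differ beyond their spread. In PFC, Kcnd2 (22.2 ± 1.13) and Kcnc4 (21.9 ± 1.085) did not differ beyond theirs. Kcnh1 led the EAG genes in NAc and Kcnh3 in PFC. Summed by class, Kv1 genes stood higher in NAc, at 126.4 CPM per kb against 113.7 in PFC, though 4 of the 7 were lower there and their median log2 fold change was -0.50. The silent Kv genes summed to 49.1 CPM per kb in NAc and 100.96 in PFC, the EAG genes to 43.5 and 80.4, and the inward rectifiers to 114.4 and 191.8. K2P genes (47.9 in NAc and 52.7 in PFC) and calcium- and sodium-activated genes (42.8 and 44.2) were closer to each other between regions.

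Promoters are shown for 4 genes chosen after their values were seen, to set the start regions of 2 genes more than 2-fold higher in NAc (Kcnj2 and Kcnn3) beside those of 2 more than 2-fold lower (Kcnh7 and Kcnj9). They are the 200 bases before the annotated RefSeq start, build GRCm38.p6, read 5′ to 3′ on the gene's strand (for Kcnj9 that start lies 4 bases from the GENCODE start). Capitals mark GC boxes (GGGCGG), E-boxes (CACGTG) and TATA boxes (TATAAA) found on either strand, and no TGACG, the core of the cyclic AMP response element, was found in these 4. The genes lie at chr11:111066164-111076821 (Kcnj2, plus strand), chr3:89520164-89675132 (Kcnn3, plus), chr2:62693414-63184287 (Kcnh7, minus) and chr1:172320501-172329318 (Kcnj9, minus) in GRCm38.
Kcnj2, chr11:111065964-111066163: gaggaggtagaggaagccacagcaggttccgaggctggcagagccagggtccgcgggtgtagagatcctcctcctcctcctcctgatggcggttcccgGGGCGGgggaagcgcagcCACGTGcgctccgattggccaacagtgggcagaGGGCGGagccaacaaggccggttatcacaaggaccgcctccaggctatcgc
Kcnn3, chr3:89519964-89520163: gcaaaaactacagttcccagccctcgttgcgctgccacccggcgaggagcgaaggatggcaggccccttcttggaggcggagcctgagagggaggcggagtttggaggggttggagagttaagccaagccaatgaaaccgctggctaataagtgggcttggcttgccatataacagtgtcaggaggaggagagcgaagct
Kcnh7, chr2:63184288-63184487: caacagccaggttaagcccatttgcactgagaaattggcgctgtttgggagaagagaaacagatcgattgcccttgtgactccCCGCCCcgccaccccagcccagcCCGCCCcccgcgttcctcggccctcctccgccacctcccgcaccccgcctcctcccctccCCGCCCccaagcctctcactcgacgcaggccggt
Kcnj9, chr1:172329323-172329522: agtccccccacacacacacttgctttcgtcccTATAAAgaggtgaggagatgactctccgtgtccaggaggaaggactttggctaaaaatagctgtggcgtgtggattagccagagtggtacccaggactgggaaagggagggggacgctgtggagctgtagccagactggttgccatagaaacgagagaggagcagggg
In the RefSeq set, 62 Kcn genes had a promoter, 19 of them higher and 38 lower in NAc. Motifs were counted on either strand of the 200 bases before the start. Each Kcn gene was counted once, at the start nearest its GENCODE start, whereas the background holds every promoter listed. GGGCGG was in 31 of the 62 (50%), against 31.05% of all 32851 promoters listed. It was in 11 of the 19 higher genes, 17 of the 38 lower genes and 3 of the 5 not called. TGACG was in 12 of 62 (19.35%), against 15.66% of all promoters, in 0 of the 19 higher genes, 10 of the 38 lower genes and 2 of the 5 not called. CACGTG was in 4 of the 19 higher and 1 of the 38 lower genes (5.26% of all promoters), and TATAAA in 0 of 19 and 2 of 38 (9.96%). Each motif was counted on its own, whether or not it overlapped another. These are matches of letters and no measure of binding.

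Kv1 genes divided by region. Kcna5 (ENSMUSG00000045534, chr6:126532551-126535412, minus strand), a Kv1 subunit best known from heart and smooth muscle, had 17.03, 27.6 and 35.6 CPM (lowest, median, highest) in NAc libraries and 1.18, 1.94 and 3.15 CPM in PFC libraries. The lowest NAc library lay above the highest PFC library, and the log2 fold change was 3.81 (SE 0.0526; adjusted p = 3.19e-44 by edgeR). Kcna4, the fast-inactivating Kv1 subunit, had 43.2, 77.5 and 111.2 CPM in NAc and 22.03, 26.6 and 28.9 CPM in PFC, again without overlap (log2 fold change 1.498, SE 0.0343). Kcna1 was also higher in NAc (0.59) and Kcna2, its usual axonal partner, was lower (-0.82), as were Kcna6 (-0.61) and Kcna3 (-0.50). The 3 genes in the cluster on chromosome 6, Kcna1, Kcna5 and Kcna6, thus included genes of both signs. Kcna2 and Kcna3 have a neighbour on chromosome 3, Kcna10, which had a mean of 0.0531 ± 0.0557 CPM in NAc and 0.119 ± 0.0616 CPM in PFC and did not pass the low-count filter in NAc.

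Among Kv2, Kv3 and Kv4 genes, 8 of 9 were lower in NAc, and the exception was a Kv4 gene. The Kv3 genes encode the fast-deactivating channels of fast-spiking neurons. Kcnc4 had 11.3, 21.4 and 38.9 CPM in NAc and 70.7, 80.4 and 90.8 CPM in PFC (log2 fold change -1.89, SE 0.0714), and Kcnc2 and Kcnc1 had log2 fold changes of -1.45 and -0.83. Kcnb2, a Kv2 delayed rectifier of cell bodies, was lower as well, with 16.3, 25.1 and 34.3 CPM in NAc and 55.8, 76.2 and 90.8 CPM in PFC (-1.61, SE 0.0347). Of the Kv4 genes, which carry the dendritic A-type current, Kcnd2 was higher in NAc (0.53) with 131.6, 164.2 and 225.0 CPM in NAc and 102.5, 115.0 and 127.8 CPM in PFC. No NAc library was as low as any PFC library for Kcnd2, whereas Kcnd3 was lower (-0.47) and the X-linked Kcnd1 differed by -0.09.

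Silent Kv genes were lower in 7 of 10 cases. Kcng4 had 0.0814, 0.407 and 1.22 CPM in NAc and 1.62, 2.83 and 4.62 CPM in PFC (log2 fold change -2.67, SE 0.132). Kcns3, known in cortex from fast-spiking interneurons, had 0.816, 1.90 and 3.21 CPM in NAc and 5.41, 6.64 and 8.89 CPM in PFC (-1.84, SE 0.0660), and Kcns1 had 1.73, 3.07 and 5.02 CPM in NAc and 7.83, 9.81 and 13.3 CPM in PFC (-1.68, SE 0.0589). None of these 3 overlapped between regions. Pvalb, the calcium-binding protein of fast-spiking interneurons, averaged 5.80 ± 3.01 CPM in NAc and 21.997 ± 4.44 CPM in PFC. Of the other markers listed for parvalbumin and somatostatin interneurons, Sst averaged 134.1 ± 19.7 and 144.3 ± 12.7 CPM. Lhx6 (24.85 and 19.45 CPM), Gad1 (630.0 and 302.7 CPM) and Gad2 (899.7 and 202.0 CPM) were higher in NAc. The 5 markers summed to 1694.5 CPM in NAc and 690.5 CPM in PFC. Most of that sum in both regions was Gad1 and Gad2, which are not particular to these interneurons, so it does not track their number. The part of the 5 markers in the values of Kcng4, Kcns3 and Kcns1 was not tested. The abundant Kcnf1 and Kcnv1 were lower by -1.21 and -1.35 on the log2 scale. Kcns2 was higher in NAc by 0.21, and Kcng3 was not called (-0.001). Kcnv2, a silent subunit best known from photoreceptors, had 401 counts over all NAc libraries and 3 counts over all PFC libraries, a ratio of 133.3 whose exact 95% interval for counting error ran from 45.3 to 648.9, and it did not pass the low-count filter in PFC.

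Kv7 genes, the subunits of the muscarine-sensitive M current, had a median log2 fold change of -0.34. Kcnq5 was slightly higher in NAc, at 184.0 ± 20.4 CPM against 170.4 ± 12.4 CPM in PFC (0.11, SE 0.0282), and Kcnq3 was lower (-0.34). In the EAG family, Kcnh7, a subunit related to the cardiac repolarising channel, had 27.6, 59.4 and 133.2 CPM in NAc and 222.7, 271.6 and 330.1 CPM in PFC (-2.20, SE 0.0822). Kcnh3 was lower by -1.31 and Kcnh5 by -0.99. Kcnh8 went the other way at low level, with 1.21 ± 0.309 CPM in NAc and 0.217 ± 0.0893 CPM in PFC (2.55, SE 0.138), and was higher in NAc in 48 of 48 animals.

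Small-conductance calcium-activated (SK) genes, whose channels produce the afterhyperpolarisation, split between the regions. Kcnn3 had 63.6, 90.8 and 104.8 CPM in NAc and 21.1, 30.2 and 35.3 CPM in PFC, without overlap (log2 fold change 1.605, SE 0.0255; adjusted p = 1.12e-42 by edgeR). Kcnn2 and Kcnn1 were lower in NAc, by -0.68 and -1.05. The SK gene with the highest level per kb in NAc was Kcnn3, at 8.65 CPM per kb of exon. Kcnma1, the large-conductance channel opened by calcium and voltage, was lower in NAc at 104.4 ± 16.2 CPM against 183.4 ± 17.1 CPM in PFC (-0.83, SE 0.0323). Of the sodium-activated genes, Kcnt1 was higher (0.57) and Kcnt2 lower (-1.49).

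Among inward rectifiers, 9 of 13 genes were lower in NAc, 2 higher and 2 not called; the 9 include Kcnj13, which passed the low-count filter in PFC only. The G protein-gated (GIRK) subunits Kcnj3, Kcnj6 and Kcnj9, which open when inhibitory receptors release G protein beta-gamma, were lower. Kcnj9 had 30.8, 46.3 and 74.5 CPM in NAc and 172.6, 201.0 and 219.0 CPM in PFC (log2 fold change -2.13, SE 0.0531; adjusted p = 7.08e-33 by edgeR). Kcnj3 had 32.4, 65.3 and 132.0 CPM in NAc and 172.1, 194.1 and 225.2 CPM in PFC (-1.64, SE 0.0743), and Kcnj6 had 4, 10.05 and 23.9 CPM in NAc and 21.8, 36.3 and 41.6 CPM in PFC (-1.83, SE 0.0985). Only for Kcnj6 of these 3 did a NAc library reach the PFC range. The fourth GIRK subunit, Kcnj5 (chr9:32314707-32344350, minus strand), best known from the heart, had the opposite sign at a low level, with 0.883, 2.07 and 3.98 CPM in NAc and 0.0133, 0.126 and 0.3804 CPM in PFC (3.88, SE 0.158).

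The strong inward rectifier Kcnj2 was higher in NAc, with 25.6, 54.2 and 73.2 CPM there and 16.9, 21.4 and 27.3 CPM in PFC (log2 fold change 1.31, SE 0.0440), and it was higher in NAc in 48 of 48 animals. The related Kcnj4 and Kcnj12 were lower, by -0.34 and -0.93, so that the Kir2 genes did not share a sign. Kcnj16, which lies beside Kcnj2 on chromosome 11, was lower (-1.31), and Kcnj9 has a neighbour on chromosome 1, the astrocyte inward rectifier Kcnj10, with nearly the same level in both regions. Kcnj10 averaged 195.2 ± 21.7 CPM in NAc and 197.7 ± 20.3 CPM in PFC (log2 fold change -0.02, SE 0.0253; adjusted p = 0.382 by edgeR, higher in NAc in 21 of 48 animals). Summed astrocyte markers were 1005 ± 88.4 CPM in NAc and 927.3 ± 66.8 CPM in PFC. The ATP-sensitive pore subunit Kcnj11 was lower (-0.99), as was Kcnj8 (-0.27). Kcnj13 averaged 0.0432 ± 0.0887 CPM in NAc and 0.711 ± 0.445 CPM in PFC and was lower in NAc in 48 of 48 animals. Meningeal fibroblast markers moved with it, at 11.9 ± 2.44 summed CPM in NAc and 32.1 ± 8.09 CPM in PFC. Choroid plexus and ependymal markers moved against it, at 25.4 ± 6.00 and 2.06 ± 1.01 CPM. Most of the latter sum in NAc was Clic6, at 18.3 ± 3.16 CPM against 0.220 ± 0.157 CPM in PFC. Ttr averaged 1.88 ± 4.15 and 0.571 ± 0.790 CPM. The part of all these markers in the Kcnj13 value was not tested.

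**Figure D2:**
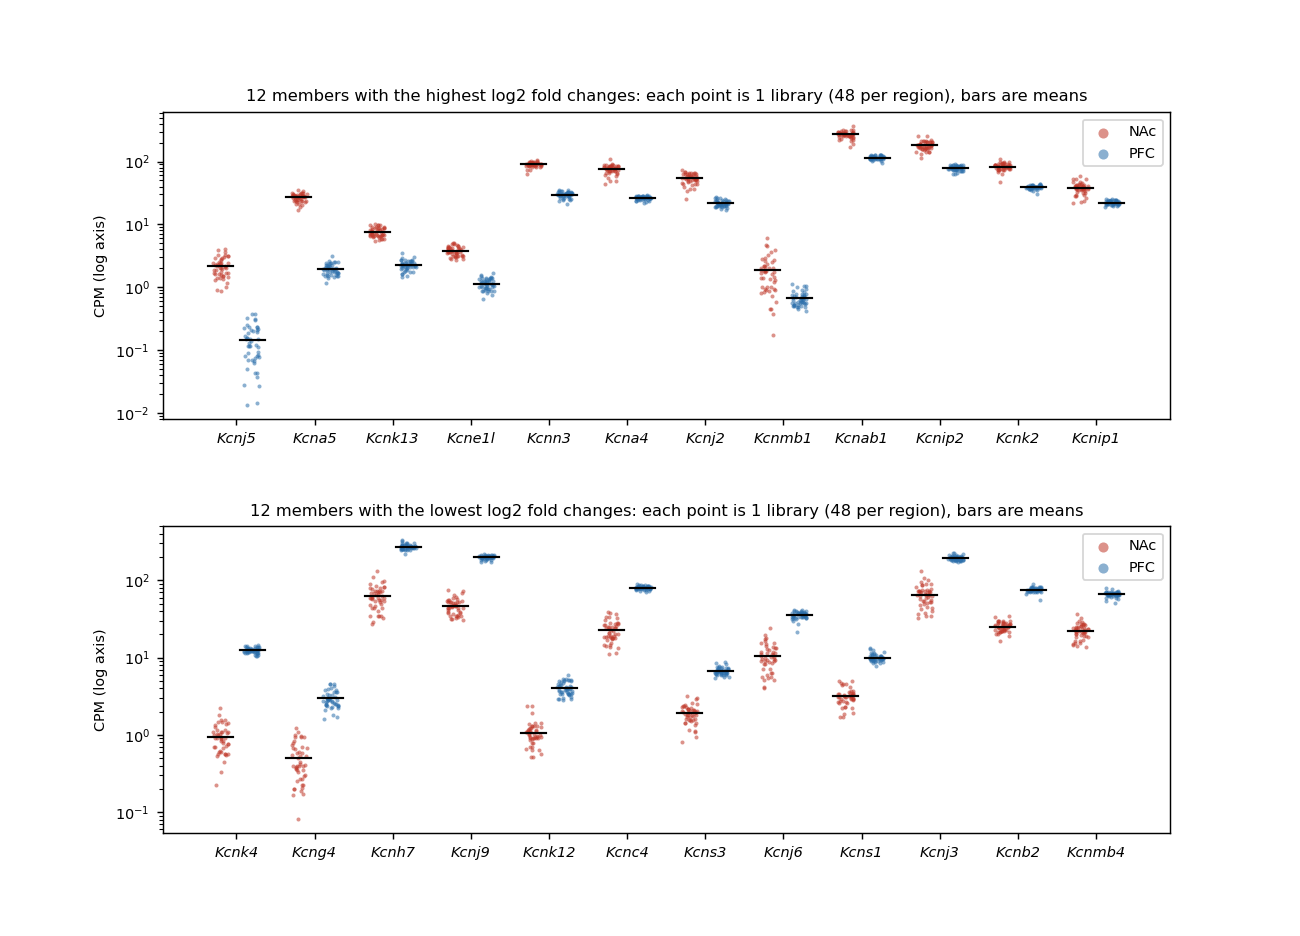
CPM on a log axis of the 12 Kcn genes with the highest (top) and the 12 with the lowest (bottom) log2 fold changes among called genes with a mean of at least 0 log2 CPM, 1 point per library, NAc red and left, PFC blue and right, black bars the means. Kcnj5, at the left of the top panel, had 0.883 to 3.98 CPM in NAc and 0.0133 to 0.3804 CPM in PFC; Kcnj6, Kcnj2, Kcnip1 and Kcnmb1 are the genes whose libraries overlapped.

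K2P leak channel genes were lower in 7 of 11 cases, and the genes of the mechanosensitive TREK1 and TRAAK had opposite signs. Kcnk4, which encodes TRAAK, had 0.222, 0.907 and 2.22 CPM in NAc and 10.46, 12.5 and 14.7 CPM in PFC (log2 fold change -3.77, SE 0.0944; adjusted p = 2.82e-33 by edgeR). Kcnk2, which encodes TREK1, had 47.9, 83.6 and 109.7 CPM in NAc and 30.98, 39.2 and 44.6 CPM in PFC (1.078, SE 0.0292). In neither gene did the regions overlap, and the related Kcnk10 was lower (-0.82). The acid-sensitive Kcnk3 and Kcnk9 were lower by -1.23 and -1.35. Kcnk12 and Kcnk13, a pair of related subunits, were of opposite sign, with 1.07 ± 0.385 CPM in NAc against 4.03 ± 0.770 CPM in PFC for Kcnk12 (-1.964, SE 0.0836) and 7.55 ± 1.24 CPM against 2.24 ± 0.405 CPM for Kcnk13 (1.77, SE 0.0529). Kcnk13 is known as the resting potassium channel of microglia, whose summed markers were 195.0 ± 24.2 CPM in NAc and 232.1 ± 20.6 CPM in PFC. Kcnk7, which forms no known working channel, averaged 0.157 ± 0.101 CPM in NAc and 0.0326 ± 0.0353 CPM in PFC and did not pass the low-count filter in PFC.

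Auxiliary subunits showed both signs within each family. Of the Kv channel-interacting proteins, which bind Kv4 subunits, Kcnip2 had 112.6, 177.1 and 258.6 CPM in NAc and 62.8, 80.1 and 91.4 CPM in PFC (log2 fold change 1.19, SE 0.0383), and Kcnip1 averaged 38.2 ± 7.69 CPM against 22.2 ± 1.62 CPM (0.75, SE 0.0476). Kcnip3 and Kcnip4 were lower, by -0.63 and -0.75. Of the Kv1 beta subunits, Kcnab1, which confers fast inactivation, had 171.4, 273.1 and 364.4 CPM in NAc and 95.002, 116.7 and 128.5 CPM in PFC (1.204, SE 0.0263), while Kcnab2 (-0.95) and Kcnab3 (-1.07) were lower. Of the beta subunits of the large-conductance channel, the neuronal Kcnmb4 had 13.6, 22.4 and 36.8 CPM in NAc and 50.6, 66.9 and 79.4 CPM in PFC (-1.60, SE 0.0549), and Kcnmb2 was lower too (-1.34). Kcnmb1, the smooth muscle beta subunit, was higher in NAc at 1.85 ± 1.22 CPM against 0.667 ± 0.171 CPM in PFC (1.26, SE 0.151). Summed pericyte and smooth muscle markers were 177.1 ± 11.8 CPM in NAc and 200.01 ± 13.9 CPM in PFC, and their part in the Kcnmb1 value was not tested. Kcnmb1 lies within the span of Kcnip1 on the opposite strand, without overlap of exons. As the strand setting is not stated, the Kcnmb1 value is uncertain, and the part of Kcnip1 reads in it was not tested. The X-linked Kcne1l, a single-span accessory subunit, was higher at 3.80 ± 0.629 CPM against 1.14 ± 0.228 CPM (1.76, SE 0.0582), and Kcne2, Kcne3 and Kcnrg were not called.

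Genes for proteins that bind or anchor these channels, 17 of which were tested, were higher in NAc in 4 cases and lower in 10, with a median log2 fold change of -0.10. The lowest was Abcc8, the sulfonylurea receptor of ATP-sensitive channels, at 13.9 ± 2.18 CPM in NAc and 30.8 ± 2.11 CPM in PFC (-1.15, SE 0.0392), which had the sign of its pore subunit Kcnj11. Lrrc38, a gamma subunit of the large-conductance channel, was also lower (-1.03), as were Cntnap1 (-0.77) and Amigo1, a partner of Kv2 channels (-0.76). Cntnap2, which clusters Kv1 channels beside nodes of Ranvier, was the highest (0.39), followed by Lrrc55 (0.25), Ank3 (0.14) and Dlg1 (0.09). Dpp6, a partner of Kv4 channels, was not called (-0.02, SE 0.0156), and its relative Dpp10 was lower (-0.62).

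NAc libraries were more variable than PFC libraries, in Kcn genes as in all genes. Of 69 Kcn genes with a mean of at least 1 CPM in both regions, 64 had a larger coefficient of variation in NAc (92.8%, against 93% of all 14032 such genes). The median coefficient was 16.6% in NAc and 8.52% in PFC over the Kcn genes, and 11.4% and 7.14% over all genes. The summed cortical excitatory markers also varied, from 54.5 to 930.1 CPM among NAc libraries. The 24 genes named for the highest and lowest fold changes were therefore set against that sum across the 48 NAc libraries, on log2 scales with 0.01 CPM added to each gene, in two-sided tests of 100000 permutations adjusted over the 24. Of the 12 genes lower in NAc, 9 had a positive correlation with an adjusted p below 0.05, and of the 12 higher in NAc, 8 had a negative one. The smallest r that passed was 0.34 in size. Of all called genes at least as far lower in NAc (log2 fold change of -1.60 or below, mean of at least 0 log2 CPM, the markers left out), 72.7% had a positive r of that size, close to the 75% of the 12. Of all called genes at least as far higher (0.75 or above), 44.2% had a negative one, against 66.7% of the 12. The median r was 0.80 over the 12 lower genes and 0.60 over all genes as far lower, and -0.38 and -0.31 on the higher side. Kcnmb4 had r = 0.92 and rho = 0.91 (permutation p = 1e-05 for each, the smallest the permutations can give, and 2.67e-05 adjusted), and r was 0.91 without the 2 libraries farthest from the median and 0.94, 0.66 and 0.94 within cohorts 1, 2 and 3. Kcnj3 had r = 0.89 (0.93, 0.82 and 0.91 within cohorts) and Kcnj6 r = 0.90 (0.96, 0.75 and 0.90). Kcns3 (r = 0.77) and Kcns1 (r = 0.71) passed over the 48 libraries but had r of 0.26 and -0.03 in cohort 2. Kcng4, Kcnk12 and Kcnb2 had r of 0.26, 0.29 and 0.30, with adjusted permutation p of 0.0862, 0.0580 and 0.0517, although the adjusted p of rho was 0.0727, 0.0109 and 0.0440.

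Of the genes higher in NAc, Kcna5 had r = -0.58 (-0.65, -0.58 and -0.58 within cohorts), Kcnip2 r = -0.55 and Kcnn3 r = -0.53. Kcnip1 passed at r = -0.41 but had -0.61, 0.23 and -0.20 within cohorts 1, 2 and 3. Without the 2 libraries farthest from the median, Kcnip1 had r = -0.28 and Kcnj5 -0.31, both smaller in size than 0.34. Kcnk13, Kcne1l, Kcnmb1 and Kcnj2 were the 4 that did not pass on r; on rho, Kcnj2 did (rho = -0.41, adjusted permutation p = 0.00524). In the NAc library with the lowest marker sum (54.5 CPM) Kcnj3 had 34.3 CPM, and in the one with the highest (930.1 CPM) 132.0 CPM, both below the lowest PFC library at 172.1 CPM. Kcna5 had 27.04 CPM in the library with the lowest marker sum and 17.03 CPM in the one with the highest, both above its PFC maximum of 3.15 CPM. In the library with the highest sum 2 of the 24 genes were inside their PFC range: Kcnj6 had 23.9 CPM there (PFC minimum 21.8 CPM) and Kcnip1 22.8 CPM (19.01 to 25.4 CPM in PFC). The level of most of these 24 genes thus moved with the cortical markers among NAc libraries, though not within each cohort for each gene. On the lower side their share (75%) was close to that of all genes as far lower (72.7%). On the higher side it was 66.7%, against 44.2%. The part of the markers in the regional differences was not tested.

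**Figure D3:**
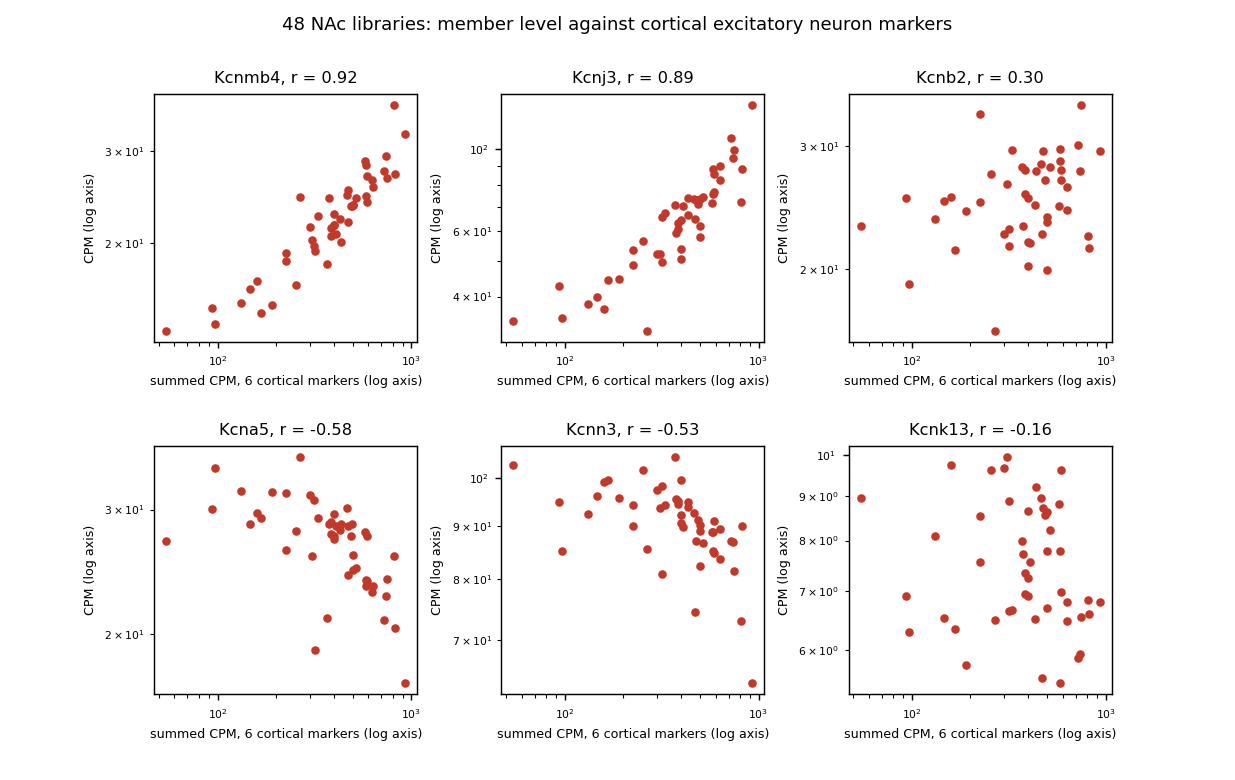
CPM of 6 Kcn genes against the summed CPM of 6 cortical excitatory neuron markers, among them Slc17a7, Tbr1 and Fezf2, both on log axes, in the 48 NAc libraries, 1 point per library, with Pearson's r on the log2 scale. Kcnmb4 (r = 0.92) and Kcnj3 (0.89) rise across the panel, Kcna5 (-0.58) and Kcnn3 (-0.53) fall, and Kcnb2 (0.30) and Kcnk13 (-0.16) scatter.

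Stress left no Kcn gene called in either region. Of 84 Kcn genes tested in each, 0 passed in NAc, where 0.0% of 19684 genes did, and 0 passed in PFC, where 0.0% of 19292 genes did. At an unadjusted p below 0.05 there were 0 Kcn genes in NAc (4.59% of all genes) and 4 in PFC (4.76%, against 5.73% of all genes). DESeq2 and limma-voom also called 0 Kcn genes for stress in each region. The 4 were Kcnip2, Kcnk6, Kcnk5 and Kcnb2. The means given below are not adjusted for cohort, over which treatment was uneven, whereas the fitted fold changes are. Kcnip2 averaged 76.3 ± 7.06 CPM in stressed and 82.2 ± 4.84 CPM in control PFC (SD, n = 24 each), and its log2 fold change was -0.10 with a 95% interval of -0.16 to -0.03 (adjusted p = 0.680 by edgeR). Kcnk6 differed by -0.13, Kcnk5 by 0.51 at means of 0.340 CPM with stress and 0.237 CPM in controls, Kcnb2 by -0.06, and Kcna6, next by p, by 0.06. In NAc the 5 genes with the smallest p were Kcnj14, Kcne4, Kcnj10, Kcne2 and Kcnn4, each with an edgeR adjusted p of 0.997. Kcnj10 averaged 201.1 ± 23.1 CPM in stressed and 189.4 ± 18.8 CPM in control NAc, a difference of 0.08 with an interval of -0.01 to 0.18. The median absolute log2 fold change of stress over the Kcn genes was 0.05 in NAc and 0.03 in PFC, against 0.99 for NAc minus PFC.

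Within single genotypes stress again left 0 Kcn genes called, where 0.0% of all genes passed in each region, and DESeq2 and limma-voom called 0 too. At an unadjusted p below 0.05, edgeR gave 1, 1, 7 and 10 Kcn genes in NAc of XX, XXSry, XY- and XY-Sry mice. These were 1.19%, 1.19%, 8.33% and 11.9% of the 84, against 3.84%, 2.49%, 4.45% and 6.2% of all genes. In PFC it gave 3, 2, 14 and 8, or 3.57%, 2.38%, 16.7% and 9.52%, against 3.02%, 5.8%, 9.13% and 6.3% of all genes. The smallest p-values in PFC belonged to Kcnq3 in XY-Sry mice, at 344.8 ± 24.3 CPM with stress and 389.9 ± 19.02 CPM in controls (n = 6 each; log2 fold change -0.18, adjusted p = 0.623 by edgeR), and to Kcnma1 in XY- mice, at 192.9 ± 10.6 CPM with stress (n = 6) and 165.0 ± 26.5 CPM in controls (n = 7; 0.23, adjusted p = 0.275 by edgeR). Kcnk1 in XX mice (-0.18) and Kcnip2 in XXSry mice (-0.18) headed the other genotypes there. In NAc the leading genes were Kcnn2 in XX (0.24), Kcne2 in XXSry (1.54, at 0.122 CPM with stress and 0.0466 CPM in controls), Kcna3 in XY- (0.29) and Kcnq1 in XY-Sry mice (-1.32, at 0.166 ± 0.0729 CPM with stress and 0.433 ± 0.184 CPM in controls). None of these passed, and the smallest edgeR adjusted p in NAc was 0.797. Of the interactions, stress by gonads had the smallest p for Kcnk1 in PFC, where the effect of stress was higher by 0.22 in mice with testes (95% interval 0.13 to 0.32, adjusted p = 0.126 by edgeR), and DESeq2 called it (adjusted p = 0.0311). That was the single Kcn gene called for an interaction by any of edgeR, DESeq2 and limma-voom. At an unadjusted p below 0.05, edgeR gave 2, 4 and 4 genes in NAc for stress by chromosomes, stress by gonads and chromosomes by gonads (2.38%, 4.76% and 4.76%, against 3.02%, 2.94% and 2.84% of all genes). In PFC it gave 2, 8 and 3 (2.38%, 9.52% and 3.57%, against 3.14%, 6.72% and 4.35%). Stress by chromosomes, chromosomes by gonads and the remaining NAc interactions were led by Kcnj10, Kcnn2, Kcnq1 and Kcnma1 and the smallest edgeR adjusted p among them was 0.987.

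Chromosome complement was compared as XX (XX and XXSry) minus XY (XY- and XY-Sry). In PFC 2 of 84 Kcn genes were called (2.38%), beside 1.12% of all genes, 1 higher (0.28% of all genes) and 1 lower in XX (0.845%), and 13 had an unadjusted p below 0.05 (15.5%, against 11.6% of all genes). Kcnab1 (ENSMUSG00000027827, chr3:65109384-65378223) had 108.7, 119.2 and 128.5 CPM (lowest, median, highest) in XX mice and 95.002, 112.6 and 127.4 CPM in XY mice, with means of 119.4 ± 5.86 (n = 23) and 112.7 ± 7.48 CPM (n = 25). The groups overlapped over most of their range, and the log2 fold change was 0.09 (SE 0.0245; adjusted p = 0.0439 by edgeR). Kcnmb1 (chr11:33963013-33973641) had 0.423, 0.571 and 0.914 CPM in XX mice and 0.441, 0.724 and 1.11 CPM in XY mice, a log2 fold change of -0.36 (SE 0.0961; adjusted p = 0.0447 by edgeR). Both calls stood close to the threshold. Within cohorts 1, 2 and 3 the Kcnab1 difference was 0.15, -0.01 and 0.03 and the Kcnmb1 difference -0.53, -0.48 and -0.16, so that Kcnab1 was called in cohort 1 alone (adjusted p = 0.0192 by edgeR) and Kcnmb1 in none.

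Leaving out single PFC libraries gave 0 to 3 called Kcn genes: Kcnab1 was called in 26 of 48 such fits, Kcnmb1 in 20, Kcnj13 in 11 and Kcnf1 in 3. Kcnj13, an epithelial inward rectifier, had the next smallest p at 0.560 ± 0.261 CPM in XX and 0.850 ± 0.532 CPM in XY mice (-0.74, SE 0.199; adjusted p = 0.0527 by edgeR). Kcnf1 (0.09) and Kcnc2 (0.06), next by p, did not pass. Summed pericyte and smooth muscle markers were 200.8 ± 8.55 CPM in XX and 199.3 ± 17.7 CPM in XY PFC, and meningeal fibroblast markers 30.5 ± 5.72 and 33.6 ± 9.65 CPM; their part in Kcnmb1 and Kcnj13 was not tested. Striatal projection neuron markers were 92.1 ± 5.62 CPM in XX and 100.8 ± 13.2 CPM in XY PFC.

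In NAc, 0 of 84 Kcn genes were called for chromosomes, beside 0.584% of all genes (0.0762% higher and 0.508% lower in XX), and 8 had an unadjusted p below 0.05 (9.52%, against 5.97% of all genes). DESeq2 and limma-voom called 0 as well. Kcnj12 had 7.71 ± 0.757 CPM in XX and 7.003 ± 0.888 CPM in XY mice (log2 fold change 0.14, SE 0.0521; adjusted p = 0.583 by edgeR). Among the other genes with the smallest p-values were Kcnh4 (0.26), Kcnj11 (0.16) and Kcng1 (0.22). The median log2 fold change over the Kcn genes was 0.04 in NAc and 0.0008 in PFC. Kcnab1 was 276.7 ± 29.9 CPM in XX and 263.2 ± 37.02 CPM in XY NAc (0.07, 95% interval -0.03 to 0.18), and Kcnmb1 1.61 ± 0.964 and 2.07 ± 1.39 CPM (-0.41, interval -1.01 to 0.19). The 2 Kcn genes on the X chromosome, Kcnd1 and Kcne1l, were not called: Kcnd1 differed by 0.06 in NAc and -0.03 in PFC, and Kcne1l by 0.04 and -0.04.

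**Figure D4:**
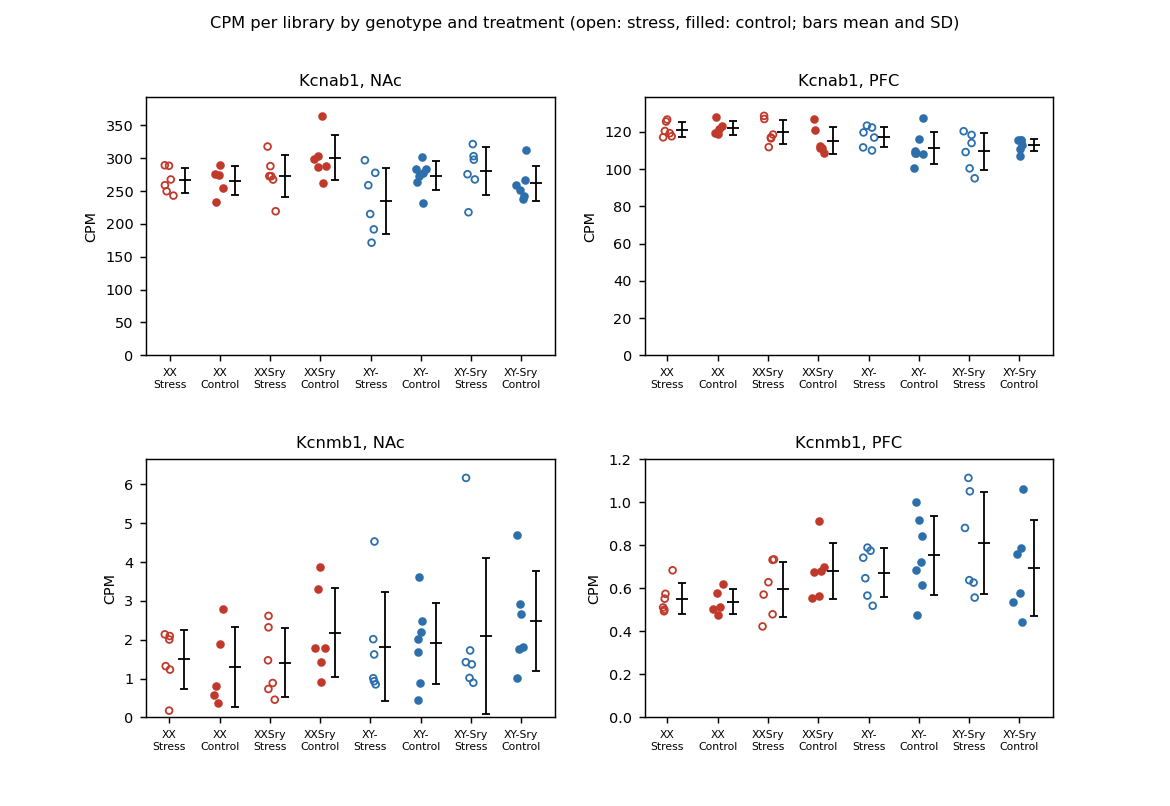
CPM of Kcnab1 (top) and Kcnmb1 (bottom) in NAc (left) and PFC (right) by genotype and treatment, 1 point per library, XX groups red, XY groups blue, stress open, control filled, with mean and SD. In PFC, Kcnab1 averaged 119.4 CPM in XX and 112.7 CPM in XY mice, and single libraries of both overlap.

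Gonads, compared as testes (XXSry and XY-Sry) minus ovaries (XX and XY-), gave 0 called Kcn genes in NAc, beside 0.0102% of all genes, and 0 in PFC, beside 0.0467% (0.00518% higher and 0.0415% lower with testes). At an unadjusted p below 0.05 there were 7 in NAc (8.33%, against 9.28% of all genes) and 3 in PFC (3.57%, against 6.74%). DESeq2 and limma-voom called 0 as well. In NAc, Kcnh2, the cardiac repolarising subunit, averaged 22.8 ± 2.90 CPM with testes and 25.9 ± 4.86 CPM with ovaries (n = 24 each; -0.17, adjusted p = 0.497 by edgeR), followed by Kcng4 (-0.58), Kcnq3 (0.12), Kcnk6 (-0.14) and Kcnc1 (-0.08). In PFC, Kcne1l averaged 1.06 ± 0.164 CPM with testes and 1.22 ± 0.254 CPM with ovaries (-0.22, adjusted p = 0.518 by edgeR), followed by Kcnj2 (0.10), Kcnq5 (0.06), Kcnk13 (-0.14) and Kcnj13 (-0.38).

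**Figure D5:**
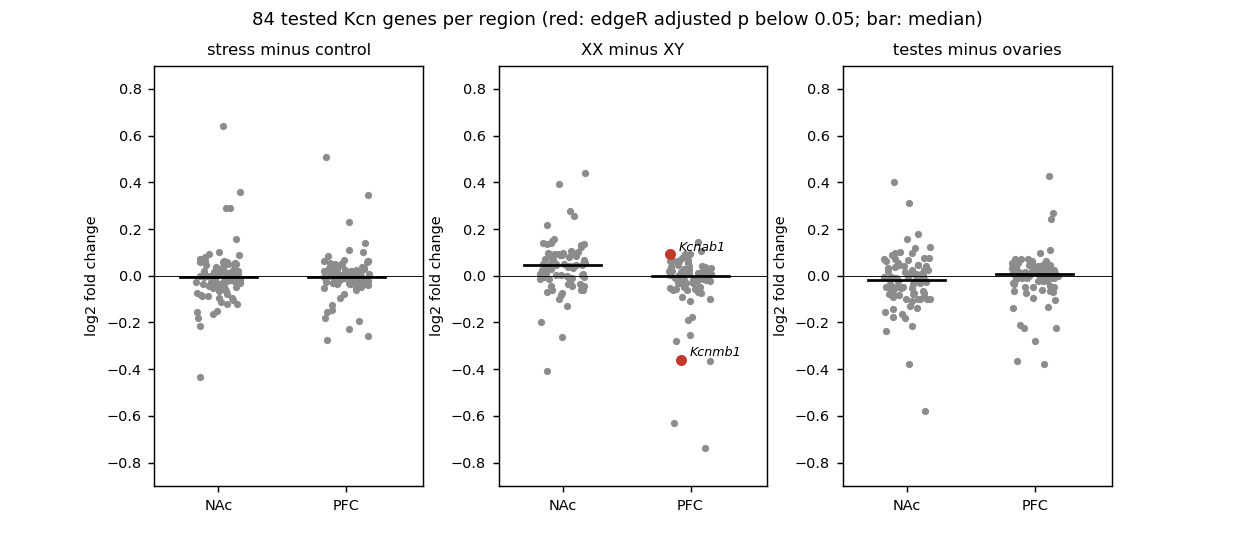
Log2 fold changes of the 84 Kcn genes tested per region for stress minus control, XX minus XY and testes minus ovaries, 1 point per gene, in NAc (left) and PFC (right), black bars the medians, red the called genes. Kcnab1 (0.09) and Kcnmb1 (-0.36) in PFC are the 2 called points.

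Whether these effects differed between regions was tested in the fit with the animal as a block. For region by stress 0 Kcn genes were called (0.0% of all genes), led by Kcnj14 (0.46, adjusted p = 0.956 by edgeR). For region by chromosomes 0 were called (0.0151% of all genes), led by Kcnj12 (0.11, adjusted p = 0.942 by edgeR), and for region by gonads 0 (0.0% of all genes), led by Kcnab1 (0.14, SE 0.0497; adjusted p = 0.844 by edgeR). At an unadjusted p below 0.05, edgeR gave 2, 3 and 4 Kcn genes for region by stress, chromosomes and gonads (2.33%, 3.49% and 4.65%, each below the 4.97%, 4.79% and 5.25% of all genes), and DESeq2 and limma-voom called 0. The difference between NAc and PFC itself had cohort means within 0.302 of each other on the log2 scale for 22 of the 24 genes with the highest and lowest fold changes. Kcna5 differed by 3.75, 3.86 and 3.81 in cohorts 1, 2 and 3, Kcnn3 by 1.63, 1.56 and 1.61, Kcnk4 by -3.86, -3.83 and -3.73, and Kcnj9 by -2.15, -2.12 and -2.11. The other two moved by over 1.5-fold between cohorts, Kcng4 with -2.73, -3.09 and -2.34 and Kcnj5 with 4.32, 3.54 and 3.93. The summed Kcn level lay between 4495 ± 355 CPM (stressed XY- mice, n = 6) and 4951 ± 130 CPM (control XX mice, n = 5) over the 8 NAc groups, and between 6088 ± 346 CPM (control XY- mice, n = 7) and 6513 ± 277 CPM (control XX mice, n = 5) over the 8 PFC groups.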

How the data were processed

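The deposited tables hold raw counts per Ensembl gene, 1 column per library; the submitters' processing notes name FastQC 0.11.9, Trimmomatic 0.38, HISAT2 2.2.0, edgeR, DESeq2 and GRCm38 (mm10), and neither the counting tool nor the strand setting is given in the sources used here. Per the labels' protocols, polyA libraries were made from 100 ng of punch RNA with 15 amplification cycles and read as 50-base pairs. Of the gene IDs, 19795 were found in GENCODE M21 and 123 were not.

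Counts were fitted with edgeR 4.0.16 in R 4.3.3 (TMM scaling, filterByExpr, robust quasi-likelihood), per region with 8 group means and a cohort term, and over all 96 libraries with the animal as a block and a cohort term within region. Library names carry the same animal in both regions. Across 14018 genes, the deviations of an animal's 2 libraries correlated with a median of 0.11 (-0.20 to 0.51). Of the 48 animals, 26 were above 0.1, and for 5 the NAc library correlated best with the PFC library of the same animal. The pairing thus rests on the names. P-values were Benjamini-Hochberg adjusted over all genes, and 0.05 was the threshold. CPM used TMM-scaled totals. DESeq2 1.42.0, limma-voom (limma 3.58.1), RLE scaling, other filters, no cohort term, single cohorts, no block and leaving out libraries were tried. The fits were also run on simulated data that held no cohort or animal effects, so that run does not test those terms.

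Named were called genes, or the 5 smallest p-values (1 within a genotype or for an interaction) where fewer than 3 were called; X-linked members; for NAc minus PFC the 12 highest and 12 lowest fold changes at a mean log2 CPM of at least 0 and the 3 smallest among abundant genes; the 2 highest levels per class; and genes that failed a filter. Other members are named to complete their families and were chosen after their values were seen. The members and lists were chosen with earlier results of these data known. Results that need certain genes are not reported here, in the text or the figures.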

Additional observations from a re-analysis of the deposited data

Results flagged for a closer look

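Kcnab1, Kcnmb1 and the summed level were checked in 16 groups of 5 to 7 libraries each. In 3 of these 48 checks a library was far from the others by Dixon's test, and chance flags about 1 in 20. Kcnmb1 had 6.17 CPM in NAc of 1 stressed XY-Sry mouse (replicate 8), with the next library at 1.72 CPM. Kcnmb1 also had 4.53 CPM in NAc of 1 stressed XY- mouse (replicate 26), with the next at 2.01 CPM. The summed level of all Kcn genes was 6439 CPM in PFC of 1 control XXSry mouse (replicate 27), with the next at 6290 CPM.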

How the results depend on the processing

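The count of Kcn genes called for XX minus XY in PFC was 2 as reported. It was 1 with limma-voom, with the stricter filter (at least 1 CPM in 24 libraries), without the cohort term and within cohort 1. It was 0 within cohorts 2 and 3, and the single cohorts hold fewer animals. The stricter filter left out Kcnmb1 (0.667 CPM on average) and kept Kcnab1 called (adjusted p = 0.0418 by edgeR). Limma-voom called Kcnmb1 (adjusted p = 0.0387) but not Kcnab1 (0.0515). Without the cohort term, edgeR called Kcnf1 (adjusted p = 0.0366) and neither Kcnab1 (0.0548) nor Kcnmb1 (0.0974). For limma-voom and the missing cohort term the cause was not tested. The count was 3 with DESeq2, which added Kcnj13 (adjusted p = 0.0296). It was 0 to 3 when single libraries were left out, with 29 of 48 such fits moving it by over 1.5 times. The count for stress by gonads in PFC, 0 as reported, was 1 with DESeq2 (Kcnk1, adjusted p = 0.0311). For NAc minus PFC, the fit with no replicate block (no pairing of the regions by animal) called 23 genes higher and 57 lower in NAc, the same counts as with the block, and 0 for each interaction with region; the block changed no call count. Leaving out 8 animals in turn, 1 drawn per group, gave 22 to 24 higher and 57 lower; the other animals were not run. Cohort 2 held few stressed and cohort 3 few control mice. Within single cohorts, fold changes that changed sign for stress minus control in PFC were Kcnk6 (0.0303, cohort 3), Kcnk5 (-0.445 and -0.0998, cohorts 2 and 3) and Kcna6 (-0.0132, cohort 2). In NAc they were Kcnj10 (-0.0114, cohort 2), Kcne2 (-1.13, cohort 3) and Kcnn4 (0.47 and 0.28, cohorts 2 and 3). For XX minus XY they were Kcnab1 (-0.0145) and Kcnd1 (0.0140) in PFC cohort 2, Kcne1l in PFC cohort 1 (0.0914) and without the cohort term (0.00379), Kcnd1 in NAc cohort 2 (-0.0848) and Kcne1l in NAc cohort 3 (-0.0519). For testes minus ovaries they were Kcnh2 (0.0719), Kcnq3 (-0.0137) and Kcnc1 (0.00765) in NAc cohort 2. Depth limits the genes below about 1 CPM, whose fold changes have the widest errors.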
